A study of Homo sapiens with 4 samples.

Results

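TXNIP, its arrestin-domain relatives, the transcription factors that control it and the thioredoxins were followed in LNCaP cells, an androgen-responsive human prostate cancer line. The cells had been given a MED1 expression vector (2 arrays) or the empty vector (2 arrays) by lipofection and were harvested 24 hours later. MED1 is a subunit of the Mediator complex, which bridges transcription factors and RNA polymerase II. Both groups were grown in RPMI-1640 with 10% fetal bovine serum, and the share of cells that took up either vector is not given in the sources used here. The description field of the control arrays names the MED1 vector, but their title, source name and transfection label name the control.

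The 7 genes of interest were TXNIP, ARRDC3, ARRDC4, MLX, MLXIP, TXN and TXN2, and every probe set that the platform annotation assigns to 1 of them alone was used. That gave 13 of the 22277 probe sets in the table, on 5 of the 7 genes: 3 for TXNIP, 4 for MLX, and 2 each for MLXIP, TXN and TXN2. No probe set named ARRDC3 or ARRDC4, so the arrestin-domain relatives were not analysed here. The members were chosen by gene function around TXNIP, with the measured difference between MED1 and empty vector signals already seen. Their values in that comparison are therefore a description, and whether a member passed the threshold of the fit over all probe sets is given as part of it, in support of nothing.

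TXNIP, the thioredoxin-interacting protein, has an arrestin fold. It binds reduced thioredoxin through a disulfide and blocks its activity, and it lowers glucose uptake by driving glucose transporters off the cell surface. Its gene is a classical target of MondoA, the product of MLXIP, which pairs with MLX and enters the nucleus when glucose 6-phosphate builds up. TXN is the cytosolic thioredoxin and TXN2 the mitochondrial one, both small proteins that reduce disulfides in other proteins.

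MondoA and MLX bind DNA at a carbohydrate response element, which is a pair of E-box-like hexamers a few bases apart. The RefSeq promoter windows of GRCh38.p14, from 250 bases before to 50 after a transcription start, covered 6 of the 7 genes with 8 starts. They were searched on both strands for this pair (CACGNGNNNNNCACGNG), the single E-box (CACGTG), the CCAAT box (CCAAT) and the core of the antioxidant response element (TGACNNNGC). The first pattern can overlap the second, although it did not in these windows. The pair was found in 20 of 35116 windows (0.057%), among them that of the upstream TXNIP start, where it ran from position -88 to -72. The stretches before the TXNIP and MLX starts are shown because they hold that pair and a complete single E-box. Capitals mark the hexamers and the CCAAT boxes on either strand.

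TXNIP, chr1:145996580-145996729, minus strand: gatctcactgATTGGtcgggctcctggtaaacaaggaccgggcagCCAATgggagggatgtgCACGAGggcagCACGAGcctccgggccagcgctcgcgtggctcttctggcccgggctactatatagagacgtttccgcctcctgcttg
MLX, chr17:42566990-42567099, plus strand: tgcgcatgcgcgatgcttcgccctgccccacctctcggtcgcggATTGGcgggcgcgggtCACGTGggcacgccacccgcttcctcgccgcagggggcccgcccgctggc

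The TXNIP stretch ends at the base before the start, and both CCAAT boxes lie upstream of the hexamer pair, the nearer one at -105 to -101. The MLX stretch has its E-box at -50 to -45, a hexamer found in 7.26% of all windows, and a CCAAT box, found in 34.6%. ARRDC4 also had a CACGTG hexamer, at -210 to -205, with 3 CCAAT boxes, and no match to the pair. The antioxidant response element core was found in 13.3% of all windows. Among the members it matched in the MLX window alone, past the start at 26 to 34. The windows of TXN and of the downstream starts of TXNIP and ARRDC3 held none of the 4 patterns. A match describes the letters of the window and not binding.

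**Figure D1:**
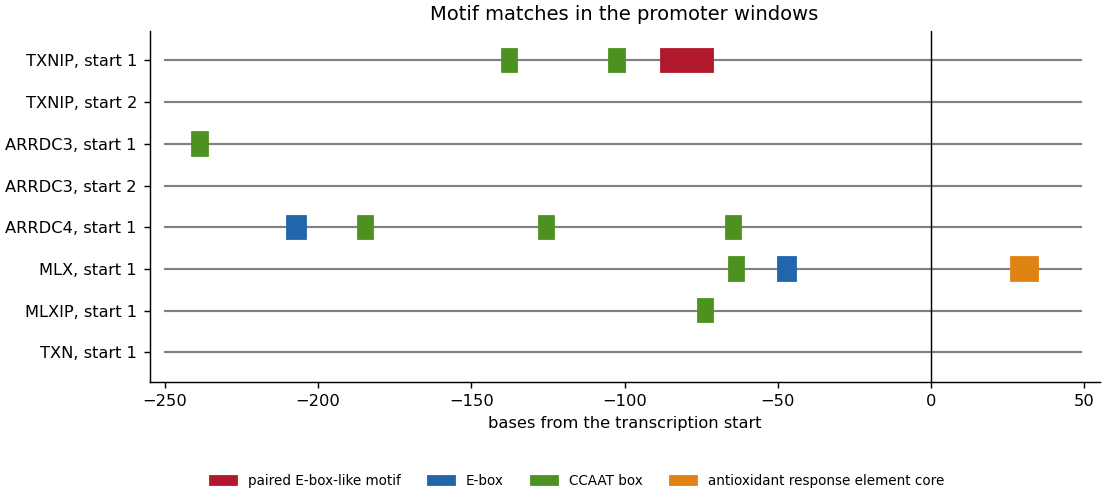
Positions of the motif matches in the promoter windows of 6 genes with 8 transcription starts, in bases from the start (position 0). Boxes are matches on either strand: the hexamer pair (red) lies in the window of the first TXNIP start, between -88 and -72, and E-boxes (blue) lie in the windows of ARRDC4 and MLX.

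The deposited values are MAS5 signals, which summarise the probes of a probe set on a linear scale. The median signal was 77.4 to 79.03 on the MED1 arrays and 80.2 to 83.2 on the empty vector arrays, and array pairs correlated at 0.986 to 0.992 (Pearson's r over tested probe sets). For the actin control, the 3' probe set over the 5' one gave 9.32 to 9.40 on the MED1 arrays and 8.14 to 9.45 on the empty vector arrays. The same ratio for the GAPDH control was 1.16 to 1.24 on the MED1 arrays and 1.16 to 1.27 on the empty vector arrays. The part of either ratio in differences between probe sets of 1 gene was not tested. Of 12 luminal prostate genes listed, 8 had a probe set and all 8 were tested. The summed signal of their probe sets was 27640 to 29930 on MED1 arrays and 29680 to 31800 on empty vector arrays. By the brightest probe set of each gene, 5 were lower in MED1 cells and 3 higher. KLK2 and TMPRSS2 were named after their values were seen. KLK2 was lower without overlap by all 3 of its probe sets (ratios of means 0.735 to 0.925), and TMPRSS2 gave 0.806 by 1 probe set and 1.13 by the other. Of 13 basal, stromal, leukocyte and endothelial markers, 3 were bright enough to be tested, and the sum over all probe sets of the 13 was 515 to 697 on MED1 arrays and 509 to 736 on empty vector arrays. The MED1 transcript itself read 559 and 807 in MED1 cells against 292 and 315 in empty vector cells by 1 probe set, and 1172 and 1074 against 1097 and 1011 by the other, where the groups overlapped.

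TXNIP RNA was lower in MED1 cells by all 3 of its probe sets. Differences are log2 fold changes of MED1 minus empty vector on the scale log2(signal + 16), with the standard error of limma, and a probe set is said to have passed at a Benjamini-Hochberg adjusted p below 0.05 over all 13329 probe sets tested. On that rule 2 of the 12 tested member probe sets passed, both of TXNIP and both lower, where 0.293% of all tested probe sets passed in either direction and 0.188% passed lower. Because the genes were proposed with this comparison in view, nothing is read from that contrast of shares. Neither TXNIP probe set passed with no filter on dim probe sets or without the variance trend, and 201009_s_at did not pass without empty vector replicate 2, at log2 fold changes close to those of the reported fit (-0.87 for 201009_s_at without that array). In a bulk sample, fewer TXNIP-expressing cells and less TXNIP RNA per cell cannot be told apart.

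Probe set 201008_s_at of TXNIP had signals of 996 and 998.7 in MED1 cells, against 1798 and 1924 in empty vector cells. The 2 MED1 arrays were nearly equal and both lay far below the controls. The ratio of means was 0.536, with a log2 fold change of -0.89 ± 0.09 (SE). Probe set 201009_s_at of TXNIP read 867 and 1075 in MED1 cells, against 1775 and 1770 in empty vector cells. Here the controls were the closer pair and the MED1 arrays the looser one, again with no overlap. Its log2 fold change was -0.87 ± 0.12, a ratio of 0.548. Single MED1 arrays over single control arrays gave 0.488 to 0.608 on this probe set and 0.518 to 0.555 on 201008_s_at.

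The third TXNIP probe set, 201010_s_at, had the highest signals and the smallest difference. It read 2823 and 2995 in MED1 cells, against 4467 and 4114 in empty vector cells, so the groups did not overlap. Its log2 fold change was -0.56 ± 0.10 (ratio 0.678), and it did not pass. All 3 values lay far below the median of all tested probe sets, -0.02. From the most lowered upwards, 201008_s_at stood 42nd, 201009_s_at 46th and 201010_s_at 226th of the 13329.

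**Figure D2:**
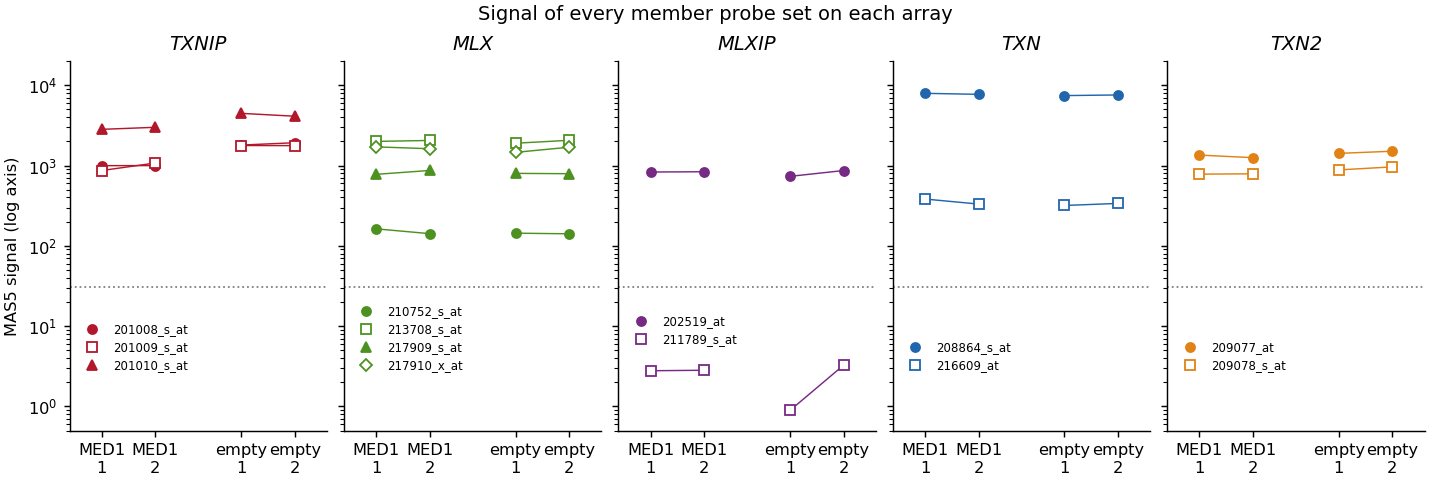
MAS5 signal (log axis) of each member probe set on the MED1 arrays (left in each panel) and the empty vector arrays (right), with 1 panel per gene. Lines join arrays of 1 group and the dotted line is the filter level of 31. All 3 TXNIP probe sets sit lower on both MED1 arrays. Both TXN2 probe sets do so by less, and the tested probe sets of the other genes lie at similar heights in both groups.

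The TXNIP probe sets were compared within each array, which removes anything that scales a whole array. The log2 value of 201008_s_at minus that of 201010_s_at was -1.49 and -1.57 in MED1 cells, against -1.31 and -1.09 in empty vector cells. The gap was thus wider by 0.33 in MED1 cells, where it varied by 0.08 between the MED1 arrays and by 0.22 between the controls. For 201009_s_at minus 201010_s_at the values were -1.69 and -1.46 in MED1 cells and -1.32 and -1.21 in empty vector cells, a shift of -0.31. Between 201008_s_at and 201009_s_at the gap was 0.20 and -0.11 in MED1 cells and 0.02 and 0.12 in empty vector cells. Those groups overlapped, so the first pair gave like differences and the brightest probe set a smaller one. The actin 3' over 5' ratio also differed between the controls, at 8.14 and 9.45. Whether RNA quality has a part in the gaps between TXNIP probe sets was not tested. All 3 are credited to the same transcript accession in the annotation and are not independent measures of the gene.

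Other genes give a scale for that spread. Of the tested genes, 888 had 3 or more tested probe sets, and the range of log2 fold change within a gene had a median of 0.29 and quartiles of 0.17 and 0.44. TXNIP had a range of 0.33. The 4 MLX probe sets had a range of 0.05. In 30 of the 888 genes every probe set was lower on both MED1 arrays without overlap, and TXNIP was among them. By the median over its probe sets TXNIP was the third lowest of the 888, behind the amino acid transporters SLC7A11 (-1.50) and SLC1A4 (-1.11), genes that were named after their values were seen.

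**Figure D3:**
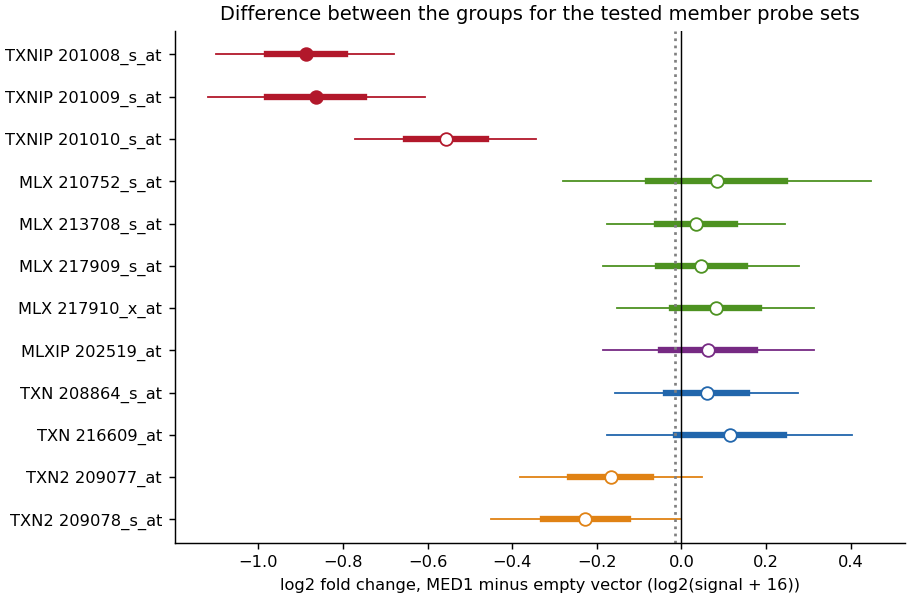
Log2 fold change (MED1 minus empty vector) of the 12 tested member probe sets, with the standard error as a thick bar and the 95% interval as a thin one. Filled circles passed, open circles did not, and the dotted line is the median of all tested probe sets (-0.02). The TXNIP values run from -0.89 to -0.56 and the others from -0.23 to 0.11.

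The differences of the TXNIP regulators lay within the spread between replicates. MLXIP, which encodes the glucose-sensing factor MondoA, read 830 and 837 in MED1 cells and 733 and 866 in empty vector cells by 202519_at. Both MED1 values lay between the control values, and the log2 fold change was 0.06 ± 0.11 with a 95% interval of -0.19 to 0.31. The other MLXIP probe set, 211789_s_at, had signals of 2.78 and 2.82 in MED1 cells and 0.891 and 3.26 in empty vector cells, and was not tested because it lay under the filter level of 31.

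MLX, the obligate partner of MondoA, was read by 4 probe sets whose log2 fold changes were 0.03 to 0.08. The brightest, 213708_s_at, gave 1998 and 2053 in MED1 cells against 1896 and 2062 in empty vector cells, and 217909_s_at gave 777 and 868 against 799 and 791. The groups overlapped on these and on both other MLX probe sets. The widest interval was that of the dimmest, 210752_s_at (-0.28 to 0.45). The probe set 217910_x_at is of a kind marked as able to match other transcripts, and its value of 0.08 ± 0.10 stood beside the rest. The unadjusted 95% intervals of all 5 tested MLX and MLXIP probe sets lay within -0.28 to 0.45. They rest on duplicates that may be technical, and whether these levels bear on TXNIP was not tested.

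The cytosolic thioredoxin TXN, the protein that TXNIP inhibits, gave 7932 and 7707 in MED1 cells against 7435 and 7570 in empty vector cells by 208864_s_at. The MED1 arrays were both the higher, with a log2 fold change of only 0.06 ± 0.10 (95% interval -0.16 to 0.28). A second TXN probe set, 216609_at, read 382 and 331 against 318 and 337, which overlapped, and gave 0.11 ± 0.13. Neither passed.

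Both probe sets of TXN2, the mitochondrial thioredoxin, gave negative values. TXN2 read 1349 and 1253 in MED1 cells against 1417 and 1508 in empty vector cells by 209077_at. By 209078_s_at it read 781 and 789 in MED1 cells against 882 and 962 in empty vector cells. Neither probe set overlapped between the groups. The log2 fold changes were -0.17 ± 0.10 (unadjusted 95% interval -0.38 to 0.05) and -0.23 ± 0.10 (-0.45 to -0.002). Neither passed over all probe sets. Of the 12 tested member probe sets, 6 had no overlap between the groups, 5 lower and 1 higher. With 2 arrays a group such a split is common: 22.6% of all tested probe sets lay wholly lower in MED1 cells and 17.2% wholly higher.

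**Figure D4:**
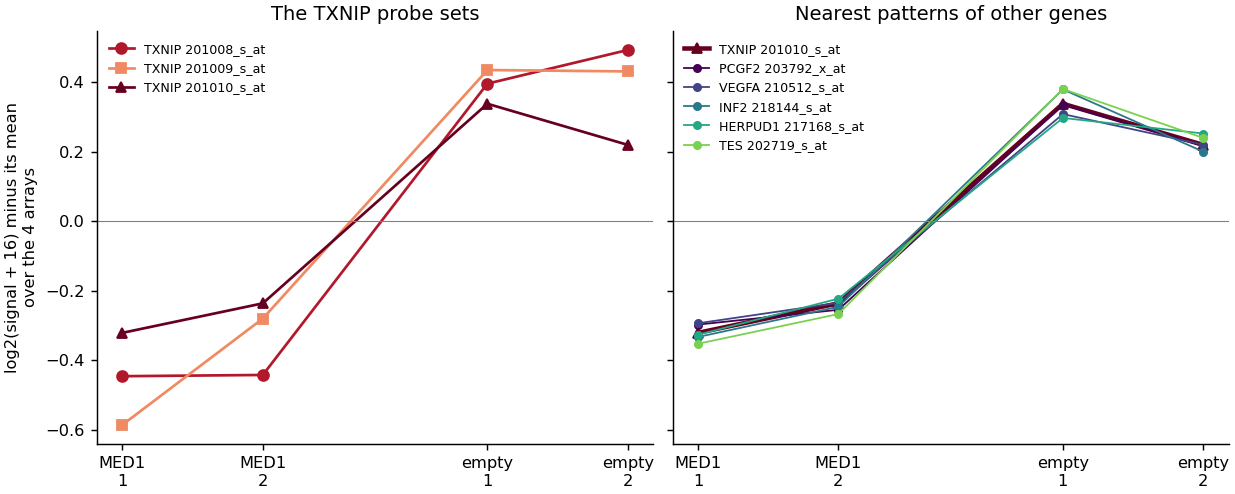
Values of log2(signal + 16), each centred on its own mean over the 4 arrays, for the TXNIP probe sets (left panel) and for 201010_s_at with the 5 nearest probe sets of other genes (right panel). Lines only join the points of a probe set. The MED1 arrays lie below 0 and the empty vector arrays above it for every line.

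The genes whose pattern over the 4 arrays was nearest to that of the brightest TXNIP probe set were PCGF2, VEGFA, INF2, HERPUD1 and TES, by Euclidean distance between centred log2 values (0.03 to 0.06). VEGFA, the vascular growth factor, read 1419 and 1479 in MED1 cells and 2162 and 2033 in empty vector cells. HERPUD1, a membrane protein of endoplasmic reticulum-associated degradation, read 2575 and 2768 in MED1 cells and 3976 and 3854 in empty vector cells. PCGF2 was dim, at 29.7 and 31.1 in MED1 cells and 54.9 and 49.3 in empty vector cells. INF2 read 53.9 and 58.2 in MED1 cells and 98.5 and 85.1 in empty vector cells. The constant added to each signal before the logarithm understates changes of dim probe sets. Ratios of means were 0.584 for PCGF2, 0.611 for INF2 and 0.678 for 201010_s_at, while log2 fold changes were -0.55, -0.58 and -0.56. How near PCGF2 and INF2 lie without it was not tested. None of the 5 probe sets passed. The other TXNIP probe sets were farther off, at 0.37 and 0.36, and 1059 and 922 other probe sets lay nearer than they did. With 4 arrays this likeness describes these samples only.

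The wider pathway was followed in 6 lists with 87 genes, of which 67 had a probe set and 56 were tested, each by the brightest of its tested probe sets. Of these, 1 passed, DDIT4, where 0.293% of all tested probe sets passed. Among the 56, 7 (12.5%) had an unadjusted p below 0.05, beside 9.2% of all tested probe sets, so the share was near the background. The lists were written with the earlier results of these arrays known.

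DDIT4, also called REDD1, restrains the growth kinase complex mTORC1 and is known to bind TXNIP. It read 4873 and 4845 in MED1 cells, against 8138 and 7840 in empty vector cells. Each group was tight and the groups lay far apart, at -0.72 ± 0.09 on the log2 scale, and it passed (adjusted p = 0.0158, limma with Benjamini-Hochberg). Its adjusted p was 0.0783 without empty vector replicate 1 and 0.117 without empty vector replicate 2, at log2 fold changes of -0.69 and -0.74, and 0.175 with no filter and 0.301 without the variance trend. Among the 10 tested binding partners of the arrestin-domain proteins 1 passed lower and 0 passed higher. Their log2 fold changes were positive for 6 and negative for 4, with a median of 0.03. NEDD4, one of the ubiquitin ligases that arrestin-domain proteins recruit, read 83.5 and 78.1 in MED1 cells and 62.2 and 59.3 in empty vector cells (0.33 ± 0.20) and did not pass.

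Of 7 tested genes of the network of E-box-binding factors around MAX and MLX, 0 passed, with a median of 0.04. MXD3, a repressor that pairs with MAX, read 225 and 225 in MED1 cells against 144 and 159 in empty vector cells, and MXI1, another such repressor, read 1110 and 1163 against 1432 and 1484. The values of these relatives pointed in opposite directions, 0.53 ± 0.15 and -0.36 ± 0.09 (limma, Benjamini-Hochberg, neither passed). MLXIPL, named outside the rule for named genes, encodes the liver-enriched relative of MondoA called ChREBP. It had a probe set under the filter, with signals of 25.2 and 4.15 in MED1 cells and 9.72 and 31.1 in empty vector cells.

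Of 10 tested thioredoxin reductases, peroxiredoxins and methionine sulfoxide reductases 0 passed, with a median of -0.03 and 6 negative values. TXNRD2, the mitochondrial thioredoxin reductase that recycles TXN2, read 323 and 300 in MED1 cells and 401 and 388 in empty vector cells (-0.33 ± 0.12). MSRB2, a mitochondrial methionine sulfoxide reductase, gave -0.16 ± 0.10, and a second MSRB2 probe set gave 0.23 ± 0.14. The cytosolic reductase TXNRD1 and the mitochondrial peroxiredoxin PRDX3, named after their values were seen, gave 0.13 ± 0.09 and -0.06 ± 0.09.

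Of 13 tested relatives with a thioredoxin fold 0 passed, with a median of -0.00147. TXNL4B, a splicing-associated member of the family, read 316 and 255 in MED1 cells and 212 and 206 in empty vector cells (0.41 ± 0.15). TMX1, a redox enzyme of the endoplasmic reticulum membrane, gave 0.26 ± 0.09 by its brightest probe set and -0.13 ± 0.13 by a second. Neither passed.

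The remaining arrestin-fold genes and the glucose genes had no passing member. Of 3 tested arrestin-fold genes the values were 0.17 ± 0.12 for the beta-arrestin ARRB1, -0.02 ± 0.09 for the retromer subunit VPS26A, named here to complete the list after its value was seen, and -0.07 ± 0.11 for RGP1. Of 13 genes of glucose uptake, glucose phosphorylation and AMP-activated kinase 0 passed, with a median of 0.09, the kinase subunits PRKAB2 at 0.42 ± 0.21 and PRKAA2 at 0.27 ± 0.28 being the farthest from 0 by the brightest probe set of each gene. The glucose transporters SLC2A3 and SLC2A1 were named after their values were seen. SLC2A3 gave 0.07 ± 0.21 by its brightest probe set. A dimmer SLC2A3 probe set read 25.9 and 20.3 in MED1 cells and 69.2 and 42.3 in empty vector cells (-0.85 ± 0.28), without overlap, and did not pass. SLC2A1, or GLUT1, which TXNIP removes from the cell surface, read 431 and 470 in MED1 cells and 428 and 510 in empty vector cells.

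**Figure D5:**
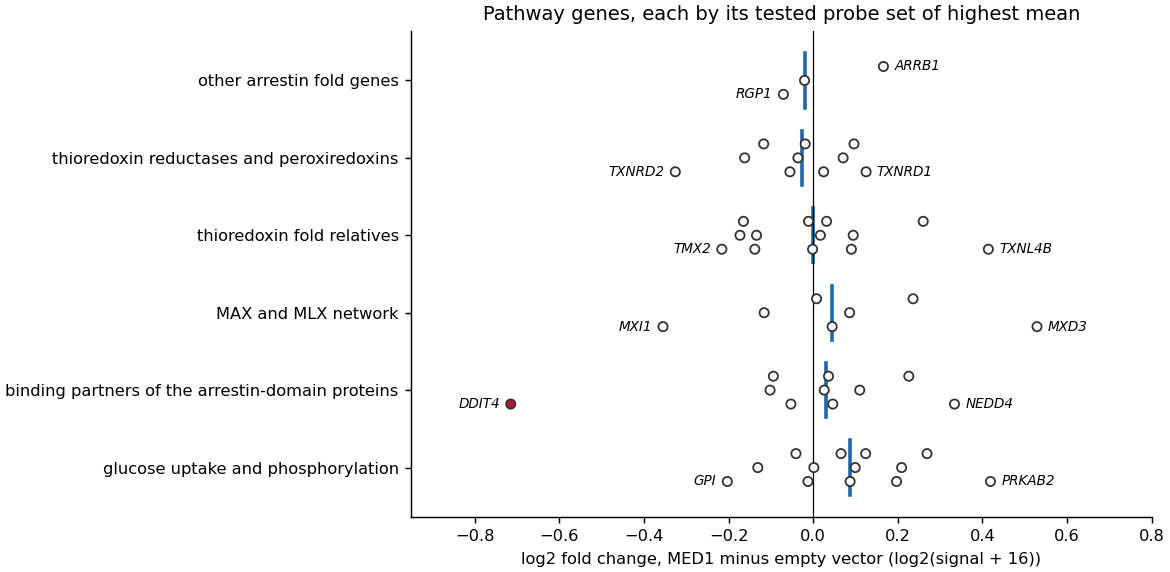
Log2 fold change (MED1 minus empty vector) of the 56 tested pathway genes in 6 lists, 1 circle per gene and staggered vertically for legibility, with the list median as a blue bar. The filled circle is DDIT4 at -0.72, which passed. Open circles did not pass, and the genes at both ends of each list are named.

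Genes that share the hexamer pair with TXNIP were looked up after its window had been searched. Of the 20 genes whose window holds the pair, 13 others had a tested probe set, and 0 passed by any of them. Of all tested probe sets 0.293% passed, so a count of 0 is near the background. By the probe set of highest mean their log2 fold changes ran from -0.24 to 0.17 with a median of -0.01. GFPT1, the first enzyme of the hexosamine pathway and named after its value was seen, gave 0.08 ± 0.11. TXNIP gave -0.56 by its own probe set of highest mean, which did not pass, and -0.87 and -0.89 by the others, which passed. Because TXNIP was chosen with its difference already seen, nothing is read from its place among these genes.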

How the data were processed

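RNA from LNCaP cells was read on 4 Affymetrix arrays, 2 given MED1 and 2 the empty vector, grouped by title. The deposited values are MAS5 signal intensities made by the authors, per the submitters' processing notes, with no version or further step given in the sources used here. Trimmed by 2% at each end, the mean signal of all 4 arrays was 500.2, and no scaling was added. Of 22277 probe sets, 62 controls were left out, 19064 of the other 22215 named 1 gene, and 19052 of those were updated through RefSeq (GRCh38.p14).

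Signals became log2(signal + 16), which understates changes of dim probe sets. Probe sets whose mean log2 value lay below the 40th percentile, equal to a signal of 31, were removed, leaving 13329. The test was that of limma 3.58.1 under R 4.3.3 (eBayes with an intensity trend, Benjamini-Hochberg, threshold 0.05, two-sided). The spread had 2 residual and 7.3 prior degrees of freedom. Intervals are unadjusted. No label says that duplicates were separate cultures, so the spread may be technical, and arrays have no read depth: their number limits precision. Data were simulated from the variance model of the fit itself, with independent noise and 200 of 13329 probe sets changed. Of the calls 4.64% were false, a share that the adjustment sets where that model is right. Even there the procedure recovered only 33.2% of 1.5-fold and 77% of 2-fold changes. Not passing is therefore no sign of an unchanged level.

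The members and lists were chosen with earlier results of these data known. Named were all member probe sets, MED1, passing genes and the 2 largest changes of each list, and the 5 patterns nearest to TXNIP. Other genes are identified as chosen later. Alternatives covered pseudocounts of 1 and 64, median centring, quantile normalization, filters, eBayes without trend or robust, a replicate block and each array left out.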

Additional observations from a re-analysis of the deposited data

How the results depend on the processing

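Every TXNIP probe set was lower in MED1 cells under all 14 alternatives to the fit. The log2 fold change of 201010_s_at, -0.56 in the reported fit, passed at -0.59 with quantile normalization, and at -0.56 with the filter at the 60th percentile, with robust eBayes and with the replicate block. It was -0.62 to -0.50 with an array left out, at SEs of 0.12 to 0.14 against 0.10 in the reported fit. With 1 array left in a group, whether a probe set passed says little. The mean over the 3 TXNIP probe sets was -0.77. The 2 passing member probe sets became 0 with no filter and 0 with eBayes lacking the trend. Leaving out single arrays gave 1 to 3. The 1 was 201008_s_at, without empty vector replicate 2. The pathway count of 1 likewise became 0 under both, and 0 to 1 when single arrays were left out (0 without either control array). Over all probe sets, 39 passed, against 0 of 22215 with no filter (1226 at an unadjusted p below 0.05 in the reported fit), 5 without the trend and 239 with the replicate block. Dropping MED1 replicate 1 gave 94, MED1 replicate 2 gave 216 and empty vector replicate 2 gave 25, the range over single arrays being 25 to 216. A lone sample was assumed to vary like the other group. With no filter more probe sets were tested, and the fitted spread changed too (SE of 201008_s_at 0.08, against 0.09 in the reported fit). The cause of these changes in count was not tested. A filter on the linear mean, chosen after seeing the data, gave 41. Same-numbered deviations correlated at 0.12 over 2 pairs, too few to treat the numbers as pairing. TXN and TXN2 kept their sign under every alternative, while the 4 MLX probe sets and the tested MLXIP one each turned slightly negative in 1 of them (to -0.05 at the lowest). Without detection calls, dim signals such as those of 211789_s_at have no known background.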
